A study of Mus musculus with 12 samples.

Results

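The genes described here are 43 genes of the cell cycle, measured in the dividing mouse macrophage line RAW264.7. They were taken by symbol from the deposited table of 54232 genes and fall into 24 genes of DNA replication (S phase) and 19 genes of mitosis. All 43 were found in the table and all 43 passed the filter on low counts, among 12771 genes tested.

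RNA was sequenced from 12 libraries in 6 groups of 2. Wild-type cells, Ing4-/- cells and Socs1-/- cells were each left untreated or given lipopolysaccharide (LPS), the outer membrane component of Gram-negative bacteria, at 100 ng/ml for 3 h. Ing4 is known as a chromatin reader and Socs1 as an inhibitor of cytokine signalling. The labels do not say whether libraries of the same group are separate cultures, or how the knockouts were made and from how many clones. The p-values therefore measure only the spread between these libraries, and what a knockout did and how the cell lines differed otherwise cannot be told apart.

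A cell that starts to divide makes D-type and then E-type cyclins, and the E2F transcription factors switch on the genes that build the replication machinery. The origin recognition complex, Cdc6 and Cdt1 load the Mcm2 to Mcm7 helicase onto DNA, Cdc45 and the GINS complex activate it, and ribonucleotide reductase and thymidylate synthase supply nucleotides. Later, Foxm1 and related factors switch on the mitotic genes, whose products condense and attach the chromosomes and pull them apart. Macrophages activated through Toll-like receptors are known to slow their division.

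Each library held 17250815 to 24377950 counts. Levels are given as CPM, the usual depth-scaled read count of a gene, here relative to the library's size after edgeR's TMM scaling, and changes as log2 ratios from edgeR. The 10 macrophage markers summed to 12320 to 22930 CPM in each library, with none at 0, and 13 markers of other lineages to 0.741 to 3.32 CPM, with 9 to 12 of them at 0. The transcripts of the targeted genes do not check the genotype labels: wild-type libraries held 2 to 10 Ing4 counts and Ing4 knockout libraries 6 to 29, and LPS-treated libraries held 169 and 179 Socs1 counts in wild type and 67 and 127 in the Socs1 knockout.

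One library, the first of the LPS-treated Socs1 knockout, stood apart from the other 5 LPS-treated libraries in the cell cycle genes and is called Socs1 LPS library 1 here. In those 5, 39 to 43 of the 43 genes lay below the mean of the untreated libraries of the same genotype. In that library 13 did. The 241 genes that rose after LPS in wild type had a median log2 of 1.61 there, against 1.99 to 2.5 in the other 5. Because 1 model with a mean for each group was fitted to all 12 libraries, the gap between the 2 LPS-treated Socs1 knockout libraries enters the error of every comparison. Leading counts or medians are therefore given with and without Socs1 LPS library 1. Because it was singled out by its levels of these same genes, values without it are no separate support in any genotype. Without it, the gap in these genes also drops out of the error shared by all comparisons.

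**Figure D1:**
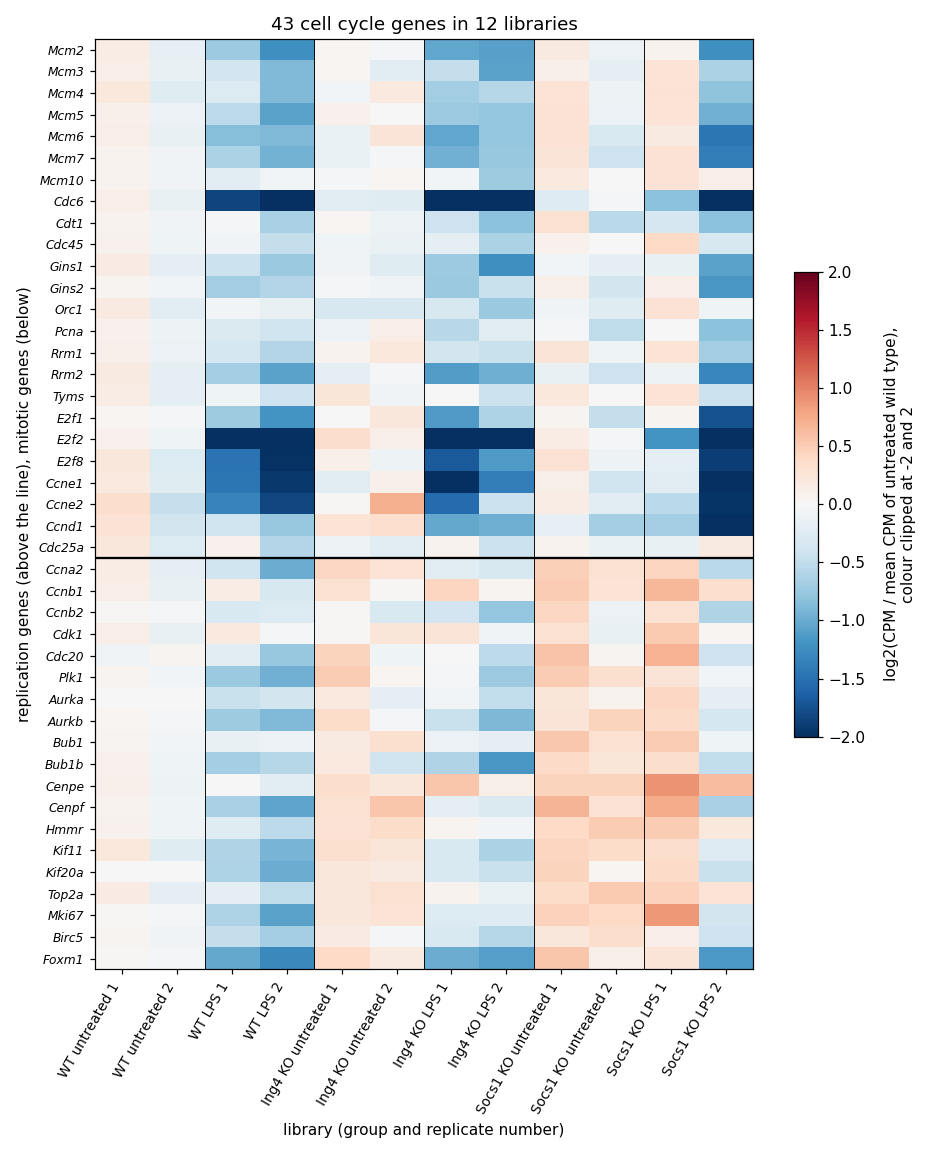
Log2 ratio of the CPM of each of the 43 genes (rows) in each of the 12 libraries (columns) to its mean in untreated wild type, with the colour clipped at -2 and 2. The LPS-treated columns are mostly blue, most deeply for Cdc6, E2f2, E2f8, Ccne1 and Ccne2, except in Socs1 LPS library 1, where 13 of the 43 genes lay below the untreated mean of the same genotype.

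Promoter sequences were available in RefSeq's GRCm38.p6 table for 34 of the 43 genes, 19 of replication and 15 of mitosis, and were searched on both strands for letters known from cell cycle promoters. In the 250 bases before the start site, the E2F letters TTTGGCGC, TTTCCCGC, TTTGCCGC or TTTCGCGC were found in 6 of 19 replication genes (31.6%), in 1 of 15 mitotic genes (6.67%) and in 2.16% of the 27025 genes of the table. The cell cycle homology region, written as TTTGAA or TTCGAA, was found in 5 of 19 (26.3%), 7 of 15 (46.7%) and 19.6%. The CCAAT box was found in 14 of 19 (73.7%), 14 of 15 (93.3%) and 37.5%. Each of these is a match of letters and not a measured binding site.

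Stretches of 6 promoters are shown because their genes span the responses described below. In the edgeR fit to all libraries without a replicate block, Cdc6 was called in 2 genotypes and the others shown were not called. Capitals mark the motif letters, each stretch lies before the RefSeq start site, and each is written on the strand of its gene. The Cdc6 stretch (chr11:98908004-98908033, plus strand), which lies inside the gene as GENCODE draws it, holds 1 E2F match on the opposite strand, and those of the helicase genes Mcm5 (chr8:75109341-75109443, plus) and Mcm6 (chr1:128359740-128359825, minus) hold E2F matches on both strands that overlap. The E2f8 stretch (chr7:48881605-48881714, minus) holds a CCAAT box and a cell cycle homology region and no E2F letters. That of Cdk1 (chr10:69352939-69353054, minus) holds matches of all 3 kinds, and that of Mki67 (chr7:135716462-135716529, minus) a CCAAT box and a pair of cell cycle homology regions.
Cdc6: cggtggagaGCGGGAAAtcgcctggggtct
Mcm5: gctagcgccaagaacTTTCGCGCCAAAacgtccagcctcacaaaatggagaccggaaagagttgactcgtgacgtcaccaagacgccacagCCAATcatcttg
Mcm6: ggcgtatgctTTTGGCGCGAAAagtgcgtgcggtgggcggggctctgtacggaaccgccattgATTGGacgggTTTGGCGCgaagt
E2f8: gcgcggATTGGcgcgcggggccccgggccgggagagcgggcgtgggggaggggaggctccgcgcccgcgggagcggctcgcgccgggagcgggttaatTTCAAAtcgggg
Cdk1: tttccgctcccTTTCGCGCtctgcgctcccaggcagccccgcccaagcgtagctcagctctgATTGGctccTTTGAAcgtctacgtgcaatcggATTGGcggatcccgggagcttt
Mki67: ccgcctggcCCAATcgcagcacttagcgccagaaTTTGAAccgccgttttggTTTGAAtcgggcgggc

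In wild-type cells, 42 of the 43 genes had a negative log2 change after LPS, against 49.3% of all tested genes. The median was -0.63 in the replication genes (range -2.84 to -0.10) and -0.57 in the mitotic genes (range -1.16 to 0.08), beside a median of 0.01 over all tested genes. In these results, a gene that fell or rose is one called at an adjusted p under 0.05 with a negative or positive log2 change. In the main edgeR fit, to all 12 libraries without a replicate block, 1 gene fell, Cdc6. That count is to be read beside the 1% of all tested genes that fell. When Socs1 LPS library 1 was left out 20 fell, 12 of replication and 8 of mitosis, beside 6.69% of all genes tested in that fit. Leaving out the other LPS-treated Socs1 knockout library instead takes the same gap out of the error, so its count is no separate check. DESeq2 called 8, all lower, beside 4.67%. With a replicate block for each genotype and library number, edgeR called 12 lower, 8 of replication and 4 of mitosis, beside 5.9%. The 8 were Mcm2, Mcm5, Cdc6, Rrm2, E2f2, E2f8, Ccne1 and Ccne2, at edgeR adjusted p of 0.024 to 0.049 with all libraries kept. Leaving out any of the other 10 libraries left no call, that of Cdc6 included. In 34 of the 43 genes both LPS-treated libraries lay below both untreated ones, as they did in 30.7% of all tested genes. In these bulk samples, fewer cells in a cycle phase and less RNA per cell cannot be told apart.

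Among the licensing genes, Cdc6 (ENSMUSG00000017499, chromosome 11, 98907801 to 98923940) loads the helicase at replication origins. It stood at 77.8 and 63.4 CPM in untreated wild type and at 19.8 and 16.5 CPM after LPS. Both treated libraries lay far below both untreated ones, with a log2 change of -1.96 (SE 0.391, edgeR quasi-likelihood test, adjusted p = 0.038). The partner loading factor Cdt1 and the origin complex gene Orc1 differed less: their groups overlapped, with log2 changes of -0.31 (SE 0.310) and -0.10 (SE 0.217). Mcm2, a helicase subunit, read 263 and 214 CPM untreated and 144 and 102 CPM after LPS, which do not overlap (log2 -0.95, SE 0.361, edgeR adjusted p = 0.17). The log2 changes of the other helicase subunits Mcm3 to Mcm7 lay between -0.86 and -0.55, and that of Mcm10, which helps to start unwinding, was -0.13 (SE 0.207). Without Socs1 LPS library 1, Mcm2, Mcm5, Mcm6 and Mcm7 fell by edgeR, at adjusted p of 0.013, 0.045, 0.041 and 0.049.

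E2f2, E2f8 and both E-type cyclins had, with Cdc6, the 5 most negative changes of the replication genes. E2f2 (chromosome 4, 136172394 to 136196057), an activating E2F factor, read 52.3 and 46.2 CPM untreated and 6.93 and 6.80 CPM after LPS. The treated libraries were well under both untreated ones, with a log2 change of -2.84 (SE 0.666), and edgeR's adjusted p was 0.062 with all libraries and 7e-05 without Socs1 LPS library 1. E2f8, a repressing E2F factor (chromosome 7, 48866429 to 48881596), went from 86.8 and 61.4 CPM to 26.65 and 18.97 CPM, again without overlap (log2 -1.70, SE 0.486, edgeR adjusted p = 0.097, and 0.0034 without that library). E2f1, the best known activating E2F factor, stood at 57.1 and 54.1 CPM and then at 33.9 and 24.2 CPM, with a log2 change of -0.94 (SE 0.488). The E-type cyclins drive entry into S phase with Cdk2. Ccne1 (chromosome 7, 38097984 to 38107534) read 88.2 and 65.1 CPM untreated and 28.1 and 20.1 CPM treated, and its log2 change was -1.67 (SE 0.570, edgeR adjusted p = 0.14, and 0.0076 without that library). Ccne2 read 55.9 and 31.7 CPM untreated and 17.4 and 12.4 CPM treated, with a wider gap between its untreated libraries (log2 -1.56, SE 0.542). Of the exonic bases of Ccne2, 17.4% lie over the gene Ints8 on the other strand, and 11.2% of those of E2f8 over Gm2788; which strand the authors' counting used is not stated in the labels.

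Ccnd1, the D-type cyclin that links growth signals to the cycle, varied widely without treatment. It read 764 and 483 CPM in untreated wild type and 471 and 369 CPM after LPS, so that the groups lay only just apart (log2 -0.57, SE 0.513, edgeR adjusted p = 0.55). Of its exonic bases, 23.4% lie over the gene LTO1 on the other strand. Pcna, the sliding clamp of the DNA polymerases, read 407 and 357 CPM and then 313 and 291 CPM (log2 -0.34, SE 0.280). In the nucleotide supply, Rrm2, the regulated subunit of ribonucleotide reductase, read 327 and 253 CPM and then 181 and 138 CPM. Its groups lay apart, with a log2 change of -0.86 (SE 0.342), and it fell without Socs1 LPS library 1 (edgeR adjusted p = 0.019). Rrm1, the other subunit, and the thymidylate synthase gene Tyms had log2 changes of -0.46 (SE 0.288) and -0.24 (SE 0.263), and those of the helicase activators Cdc45, Gins1 and Gins2 were -0.26, -0.58 and -0.64. Cdc25a, the phosphatase that releases Cdk2 from inhibition, had overlapping groups and a log2 change of -0.22 (SE 0.272). Exons of Gins2 overlap those of Gse1 on the other strand over 67.3% of their length.

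**Figure D2:**
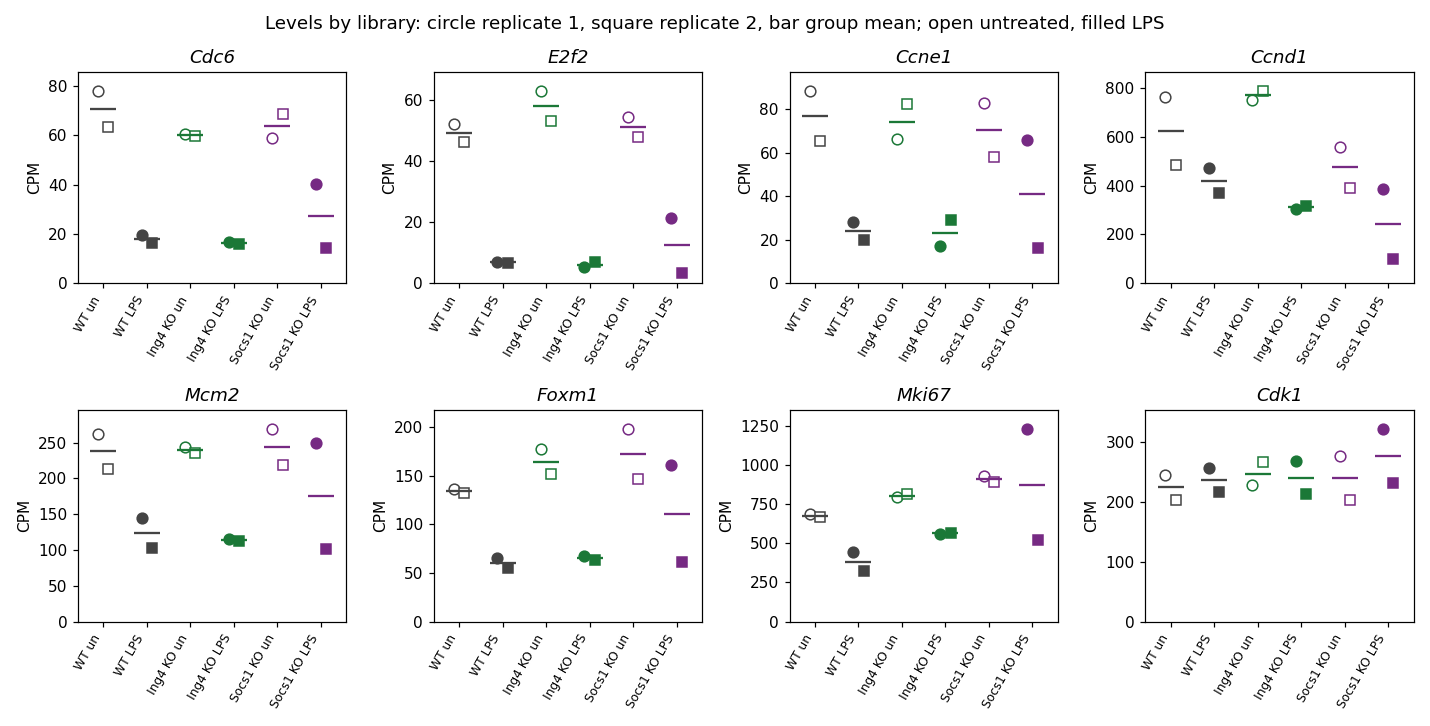
CPM of 8 of the genes by group, with circles for replicate 1, squares for replicate 2, open symbols for untreated and filled for LPS-treated libraries, and bars for the mean of 2. The LPS-treated libraries of wild type and of the Ing4 knockout lie below the untreated ones for each gene shown but Cdk1. In all 8 genes the 2 LPS-treated Socs1 knockout libraries lie further apart than the 2 untreated ones.

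None of the 19 mitotic genes was called in wild type in the main fit, the lowest edgeR adjusted p being 0.098. In that fit 8 had an unadjusted p under 0.05, all with negative changes, beside 10.9% of all tested genes. With the replicate block by genotype and number, edgeR called 4 lower, beside 5.9% of all tested genes. These were Plk1, Kif20a, Foxm1 and Kif11, at edgeR adjusted p of 0.01 to 0.031. DESeq2 called 3 of the 19, Plk1, Kif11 and Foxm1. Foxm1 (chromosome 6, 128362967 to 128376146), the transcription factor that activates many G2 and M phase genes, had the most negative change. It read 137 and 132 CPM untreated and 65.6 and 54.8 CPM after LPS, well apart (log2 -1.16, SE 0.373, edgeR adjusted p = 0.12, and 0.0033 without Socs1 LPS library 1). Mki67 (chromosome 7, 135689784 to 135716361) encodes the Ki-67 protein that coats mitotic chromosomes and marks dividing cells. Its level was 688 and 666 CPM untreated and 443 and 322 CPM treated, also apart (log2 -0.82, SE 0.340, edgeR adjusted p = 0.19, and 0.021 without that library).

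The mitotic kinases and motors differed in the size of their changes. Plk1, which drives mitotic entry and spindle assembly, read 88.8 and 82.3 CPM untreated and 50.9 and 43.8 CPM treated (log2 -0.85, SE 0.249). Aurkb, the kinase of the chromosomal passenger complex, read 114 and 109 CPM and then 68.2 and 60.6 CPM (log2 -0.79, SE 0.260). The treated libraries of both kinases lay below the untreated ones by more than the gap within either group. Cenpf, a kinetochore protein, read 120.5 and 108 CPM and then 72.8 and 54.7 CPM (log2 -0.84, SE 0.375), and the cytokinesis motor gene Kif20a read 201 and 197 CPM and then 129 and 100.1 CPM (log2 -0.80, SE 0.265). The kinases Aurka and Bub1, which act at the spindle poles and at the spindle checkpoint, had less negative log2 changes of -0.40 (SE 0.229) and -0.14 (SE 0.195). Of the exonic bases of Kif20a, 29.3% overlap Cdc23 on the other strand. Without Socs1 LPS library 1, these 4 genes, Foxm1, Mki67, the spindle motor gene Kif11 and the survivin gene Birc5 fell by edgeR, with adjusted p of 0.0033 to 0.044.

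Other mitotic genes had log2 changes near 0. Cdk1 (chromosome 10, 69335146 to 69352938), the kinase that triggers mitosis, read 245 and 203 CPM in untreated wild type and 257 and 217 CPM after LPS. Its groups overlapped and its log2 change of 0.08 (SE 0.234) has a 95% interval of -0.45 to 0.61, with the sign turning to -0.03 under upper quartile scaling. The cyclin partner Ccnb1 had a log2 change of -0.06 (SE 0.225), while Ccna2, the cyclin of S phase and G2, had one of -0.67 (SE 0.310). Cenpe, a kinetochore motor, read 133 and 116 CPM and then 124 and 107 CPM (log2 -0.11, SE 0.184). A p that misses the threshold does not show that these genes were unaltered.

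In the Ing4 knockout, 40 of the 43 genes had a negative log2 change after LPS, against 50% of all tested genes, with a median of -0.78 in the replication genes and -0.50 in the mitotic genes. Cdc6 and E2f2 fell in the main fit, 2 of 43 beside 3.29% of all tested genes. Without Socs1 LPS library 1, 17 fell, 12 of replication and 5 of mitosis, beside 9.25%. DESeq2 called 9, all lower, beside 7.47%. The fit with the replicate block by genotype and number called 23 lower, 16 of replication and 7 of mitosis, beside 12% of all tested genes. Among them were Ccnd1 and Foxm1, at edgeR adjusted p of 0.038 and 0.016 with all libraries kept. In 36 of the 43 genes both treated libraries lay below both untreated ones, as in 28.6% of all tested genes.

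Cdc6 read 60.4 and 59.5 CPM in the untreated Ing4 knockout and 16.7 and 16.0 CPM after LPS (log2 -1.88, SE 0.390, edgeR adjusted p = 0.028). E2f2 read 63.0 and 53.1 CPM untreated and 5.42 and 6.87 CPM treated (log2 -3.24, SE 0.677, edgeR adjusted p = 0.03). Both gaps were several times the spread within a group. The changes of both E-type cyclins and of E2f8 were negative but less even between libraries: Ccne1 went from 66.1 and 82.1 CPM to 17.3 and 29.2 CPM (log2 -1.67, SE 0.570). For Ccne2 the levels were 44.4 and 71.4 CPM untreated and 15.1 and 32.5 CPM treated (log2 -1.28, SE 0.536), and for E2f8 79.5 and 69.3 CPM and then 23.1 and 33.5 CPM (log2 -1.39, SE 0.481). In each of these 3 genes the groups did not overlap.

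Ccnd1 was at 751 and 787 CPM in the untreated Ing4 knockout and at 305 and 318 CPM after LPS. Its untreated levels were near the higher of the 2 wild-type libraries and its treated levels below both LPS-treated wild-type ones, with a log2 change of -1.30 (SE 0.519, edgeR adjusted p = 0.14, and 0.0087 without Socs1 LPS library 1). The difference of this change from that in wild type was -0.73 (SE 0.724). Mcm2 read 244 and 235 CPM and then 115 and 112 CPM, E2f1 55.5 and 64.7 CPM and then 25.3 and 36.0 CPM, and neither overlapped. Rrm2 read 253 and 287 CPM and then 134 and 147.4 CPM, also apart. Pcna read 350.5 and 421 CPM and then 262 and 327 CPM, with a log2 change of -0.39 (SE 0.280).

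Among the mitotic genes of the Ing4 knockout Foxm1 again had the most negative change, from 177 and 152 CPM to 67.8 and 62.8 CPM (log2 -1.33, SE 0.375, edgeR adjusted p = 0.062, and 0.0013 without Socs1 LPS library 1). Mki67 read 793 and 815 CPM and then 558 and 568 CPM, close within each group and apart between them (log2 -0.51, SE 0.338). Plk1 read 121 and 87.8 CPM and then 83.5 and 52.0 CPM, Aurkb 145 and 109 CPM and then 81.8 and 60.1 CPM. Here each group was wider than in wild type, and neither gene's groups overlapped. Cenpf read 141 and 167 CPM and then 100.6 and 93.5 CPM, and Kif20a 232 and 225 CPM and then 161 and 146 CPM. Cdk1 read 228 and 266 CPM and then 268 and 213 CPM, overlapping, with a log2 change of -0.04 (SE 0.234).

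**Figure D3:**
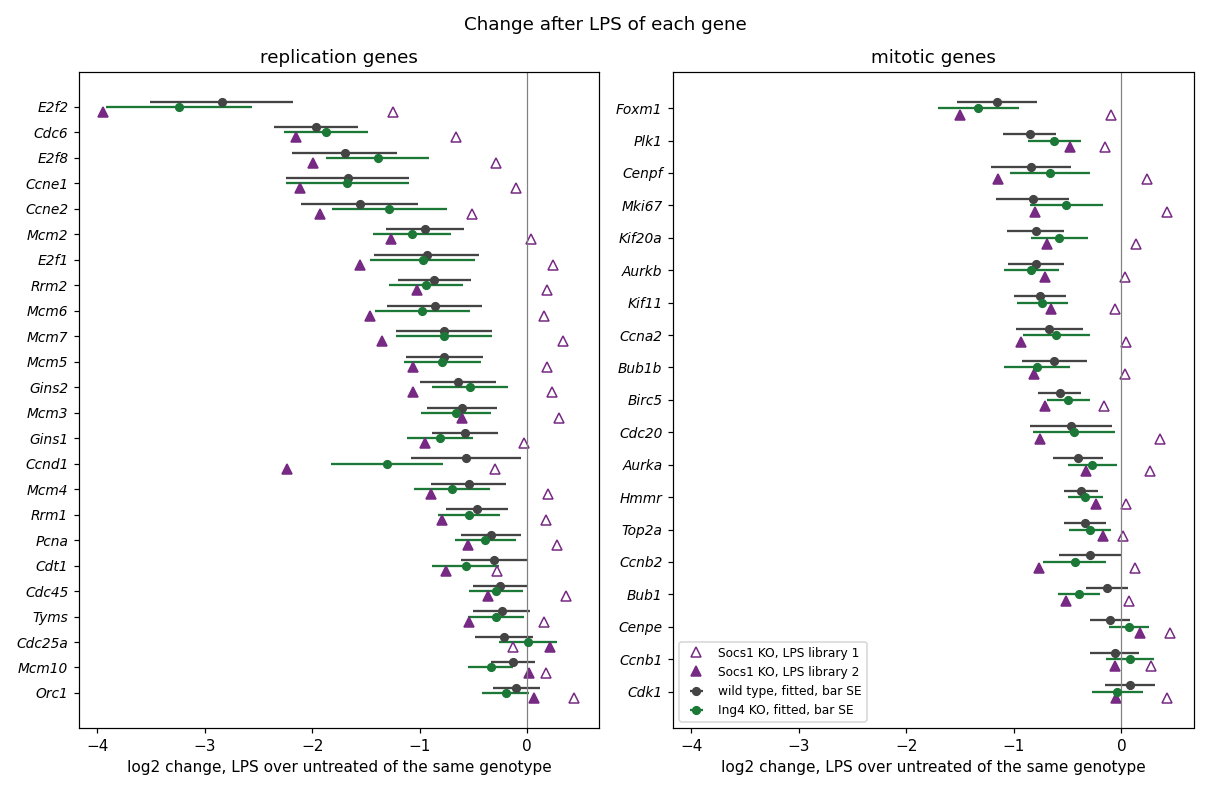
Log2 change after LPS of each replication gene (left) and mitotic gene (right), as fitted by edgeR for wild type and the Ing4 knockout (circles, bars of 1 SE), and for each of the LPS-treated Socs1 knockout libraries against the mean of the 2 untreated ones (triangles). Library 2 (filled) lies with the other genotypes for most genes, while library 1 (open) lies near 0, with E2f2 at the lowest value.

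In the Socs1 knockout the outcome depended on the library. With both, none of the 43 genes was called by edgeR, beside 0.407% of all tested genes that fell, 2 had an unadjusted p under 0.05, beside 6.19% of all tested genes with negative changes, and DESeq2 called those 2, Cdc6 and E2f2, beside 1.81%. The replicate block by genotype and number gave no call either, beside 1.63%. The medians were -0.30 in the replication genes and -0.22 in the mitotic genes. By library, the median log2 ratio to the untreated mean was 0.17 in the replication genes and 0.07 in the mitotic genes for the first LPS-treated library, and -1.04 and -0.70 for the second. In 8 of 43 genes both treated libraries lay below both untreated ones, beside 20% of all tested genes, and in 1, Cenpe, both lay above, beside 22.5%.

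Without Socs1 LPS library 1, the median log2 change was -1.04 in the replication genes and -0.69 in the mitotic genes. Of the 43 genes 39 lay below 0, against 50.4% of all genes tested. This rests on a single treated library. The library left out had been singled out by its levels of these same genes, so these values are no separate support. Leaving out the second treated library instead also left a single treated library.

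E2f2 and Cdc6 had the most negative log2 changes of the 43 genes in the Socs1 knockout. E2f2 read 54.4 and 47.9 CPM untreated and 21.6 and 3.32 CPM treated (log2 -2.03, SE 0.640, edgeR adjusted p = 0.17). Cdc6 read 58.8 and 68.6 CPM and then 40.2 and 14.3 CPM (log2 -1.22, SE 0.381, edgeR adjusted p = 0.16). In both genes the first treated library lay between the untreated libraries and the second treated one. Ccne1 read 82.8 and 58.2 CPM and then 65.6 and 16.3 CPM, so that its groups overlapped. Ccne2 was at 48.5 and 37.4 CPM and then at 30.1 and 11.3 CPM, and E2f8 at 90.1 and 69.2 CPM and then at 65.1 and 20.0 CPM, both without overlap.

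Ccnd1 read 558 and 390.5 CPM untreated, 385 CPM in the first treated library and 101 CPM in the second, the lowest of all 12. With Socs1 LPS library 1 left out, its log2 change was -2.23 (SE 0.359, edgeR adjusted p = 0.0038). The helicase gene Mcm2 read 268 and 219 CPM untreated, 249 CPM in the first treated library and 101 CPM in the second. E2f1 read 57.9 and 39.9 CPM, then 57.9 and 16.6 CPM, and Pcna 370 and 268 CPM, then 386 and 217 CPM. In these 3 genes the first treated library lay within or just above the untreated range and the second below it.

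Most mitotic genes of the Socs1 knockout showed the same split. In Plk1 both treated libraries instead lay below both untreated ones, and in Cdk1 the second lay within the untreated range. Mki67 read 931 and 894 CPM untreated, 1228 CPM in the first treated library, the highest of all 12, and 523 CPM in the second. Foxm1 read 197 and 146 CPM, then 160 and 60.7 CPM, and Cenpf 182 and 140 CPM, then 190.0 and 72.8 CPM. In all 3 the treated libraries lay further apart than the untreated ones. Plk1 read 122 and 106 CPM and then 103 and 82.0 CPM, Aurkb 133 and 152 CPM and then 146 and 87.1 CPM, and Kif20a 270.0 and 204 CPM and then 261 and 146 CPM. Cdk1 read 277 and 203 CPM and then 321 and 231 CPM. Cenpe read 169 and 170 CPM and then 231 and 191 CPM, so that both treated libraries were higher (log2 0.32, SE 0.184, edgeR adjusted p = 0.43).

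**Figure D4:**
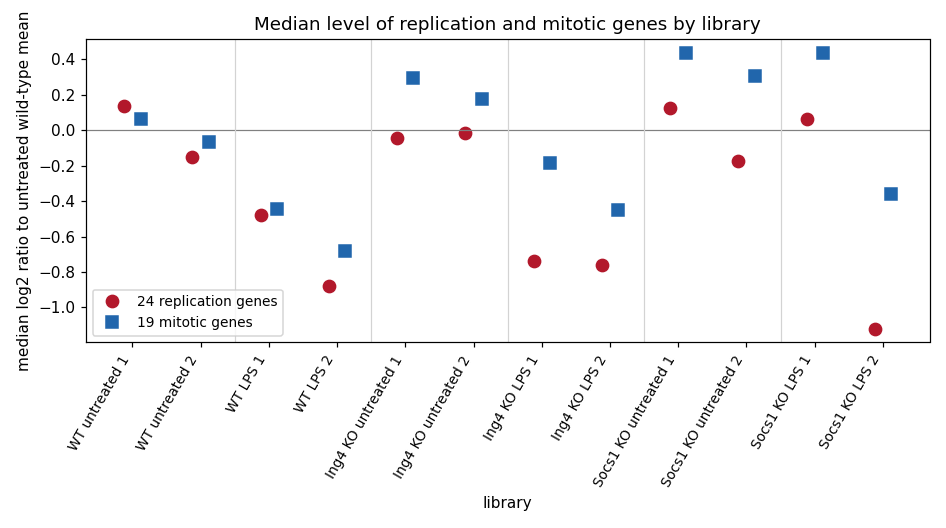
Median log2 ratio to the untreated wild-type mean of the 24 replication genes (circles) and the 19 mitotic genes (squares) in each of the 12 libraries. The mitotic median lies above the replication median in every library but the first of untreated wild type, and in the Socs1 knockout the LPS-treated libraries stand at 0.06 and -1.12 for replication.

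Without LPS, the replication genes of the Ing4 knockout had a median log2 difference from wild type of 0.00. Of these, 12 lay on each side of 0. The mitotic genes had a median of 0.25, and 17 of 19 had a positive difference, beside 6504 of the 12771 tested genes. None of the 43 was called by edgeR, beside 0.141% of all tested genes, none had an unadjusted p under 0.05, beside 5.25%, and DESeq2 called none. In 10 of the 19 mitotic genes both knockout libraries lay above both wild-type ones, as in 18.4% of all tested genes. Hmmr, which encodes a spindle and hyaluronan-binding protein, read 143 and 151 CPM against 123 and 109.9 CPM in wild type (log2 0.34, SE 0.159). Ccna2 read 328 and 299 CPM against 275 and 219 CPM (log2 0.34, SE 0.309), and Cenpf differed by a log2 of 0.43 (SE 0.372). Of the replication genes, the widest differences were those of Ccne2 (0.40, SE 0.526), Orc1 (-0.32, SE 0.217) and Ccnd1 (0.30, SE 0.511). Orc1 read 20.2 CPM in both untreated Ing4 knockout libraries and 28.5 and 21.8 CPM in wild type, and after LPS 20.1 and 15.0 against 24.2 and 22.6 CPM.

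In the untreated Socs1 knockout all 19 mitotic genes had a positive log2 difference from wild type, beside 6506 of the 12771 tested genes. Their median was 0.39 and their range 0.10 to 0.50. In 16 of them both knockout libraries lay above both wild-type ones, as in 19% of all tested genes. The replication genes had a median of -0.03. Of these, 0 of 24 lay apart in either direction, where 2608 of all tested genes lay apart lower and 2421 higher. None of the 43 was called by edgeR, beside 0.047% of all tested genes, 3 had an unadjusted p under 0.05 (Cenpe, Hmmr and Top2a, all higher, beside 1.55% of all tested genes), and DESeq2 called none. Hmmr read 154 and 166 CPM, Ccna2 345 and 306 CPM. Both lay above both wild-type libraries, Hmmr by the smaller p (log2 0.46, SE 0.159, edgeR adjusted p = 0.75). Top2a, the topoisomerase that untangles sister chromatids, read 808 and 905 CPM against 701 and 554 CPM (log2 0.45, SE 0.196, edgeR adjusted p = 0.96), and Cenpf differed by 0.50 (SE 0.372). The widest differences among the replication genes were Ccnd1 (-0.40, SE 0.512), Rrm2 (-0.28, SE 0.340) and Pcna (-0.26, SE 0.279). Rrm2 read 261 and 218 CPM against 327 and 253 CPM in wild type, and Orc1 read 23.9 and 21.4 CPM. Both knockouts were set against the same 2 wild-type libraries, so these differences are not independent of one another.

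After LPS, the mitotic genes of the Ing4 knockout had a median log2 difference of 0.30 from LPS-treated wild type. Of these 16 of 19 were positive, beside 6652 of the 12771 tested genes. None of the 43 was called, beside 0.102% of all tested genes, 2 had an unadjusted p under 0.05 (Cenpe 0.46, SE 0.184, and Hmmr 0.37, SE 0.159, beside 2.89% of all tested genes), and DESeq2 called none. The replication median was -0.08. Hmmr read 121 and 112 CPM in the treated Ing4 knockout and 98.5 and 81.05 CPM in treated wild type, and Top2a 656 and 573 against 547 and 443.5 CPM. Ccna2 read 214.5 and 197 against 187 and 123.5 CPM.

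In the LPS-treated Socs1 knockout all 19 mitotic genes had a positive difference from treated wild type, beside 6568 of the 12771 tested genes. Their median was 0.72, and the replication genes had a median of 0.36. edgeR called none, beside 0.0626% of all tested genes, with 14 mitotic genes at an unadjusted p under 0.05, beside 5.64% of all tested genes, and a lowest adjusted p of 0.16. DESeq2 called 5 higher, beside 0.767% of all tested genes: Plk1 (edgeR log2 0.96, SE 0.249), Cenpe (0.87, SE 0.185), Hmmr (0.74, SE 0.160), Top2a (0.72, SE 0.196) and Mki67 (1.20, SE 0.342). In 14 of 19 mitotic genes both knockout libraries lay above both wild-type ones, as in 16.8% of all tested genes. Hmmr read 164.7 and 136 CPM, Top2a 867 and 760 CPM, Rrm2 272 and 117 CPM, Ccna2 334 and 170 CPM, and Orc1 30.7 and 23.7 CPM. With Socs1 LPS library 1 left out, the mitotic median was 0.23, with 17 of 19 positive, the replication median was -0.36, and none was called. This rests on a single treated Socs1 knockout library, and the number called depended on which treated library was left out.

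The LPS responses of the knockouts were also tested directly against that of wild type. None of the 43 genes was called for either knockout by edgeR or DESeq2, none had an unadjusted p under 0.05, beside 0.415% of all tested genes for Ing4 and 0.799% for Socs1, and 0% of the 12771 tested genes were called. The median difference of responses was -0.05 for the replication and 0.05 for the mitotic genes in the Ing4 knockout. In the Socs1 knockout the medians were 0.40 and 0.38 with all libraries, and 3 of the 43 differences lay below 0, against 45.6% of all tested genes. With Socs1 LPS library 1 left out, the medians were -0.32 and 0.00, 29 lay below 0, against 50.1%, and 2 had negative differences with an unadjusted p under 0.05, beside 0.943%: E2f2 (-1.10, SE 0.295) and Ccnd1 (-1.66, SE 0.425), both at an edgeR adjusted p of 1. The sign of the replication median thus turned with that library. The standard errors of these differences, 0.724 for Ccnd1 and 0.225 for Hmmr in the Ing4 knockout, set how large a difference could be told from none.

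Other genes of the same processes were counted in lists chosen with earlier results of these data known. Of 48 other replication genes 46 had a negative log2 change after LPS in wild type (median -0.69), against 49.3% of all tested genes, and 3 fell, beside 1%: the GINS subunit gene Gins3 (-1.89, SE 0.172, edgeR adjusted p = 0.00096), Orc5 (-0.70) and the replisome gene Wdhd1 (-1.86). Gins3 read 63.1 and 55.2 CPM in untreated wild type and 15.2 and 16.7 CPM after LPS. It fell also in the Ing4 knockout, by 2.30 on the log2 scale, and in the Socs1 knockout, by 1.61, where its treated libraries read 18.8 and 15.1 CPM and so stood close together. Orc5, a subunit of the origin recognition complex, also fell in all 3 genotypes, with log2 changes of -0.70, -1.03 and -0.74. Without Socs1 LPS library 1, 27 of the 48 fell in wild type (beside 6.69% of all genes), 30 in the Ing4 knockout (9.25%) and 28 in the Socs1 knockout (6.73%).

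Of 42 other mitotic genes 38 had a negative change in wild type (median -0.56, against 49.3% of all tested genes) and 1 fell, beside 1%: the spindle checkpoint kinase gene Ttk (-0.92, SE 0.172, edgeR adjusted p = 0.032). In the Ing4 knockout Ttk, the kinetochore gene Ndc80 and the cytokinesis gene Ect2 fell, beside 3.29%, and in the Socs1 knockout none was called by edgeR, beside 0.407%, with 2 at an unadjusted p under 0.05, both lower, beside 6.19%. When Socs1 LPS library 1 was left out, 17 of the 42 fell in wild type (beside 6.69% of all genes), 20 in the Ing4 (9.25%) and 15 in the Socs1 knockout (6.73%).

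Among 22 tested genes that restrain the cycle, 1 rose and 4 fell in wild type, where 1.89% of all tested genes rose and 1% fell. Cdkn1a, which encodes the Cdk inhibitor p21, read 214 and 272 CPM untreated and 673 and 873 CPM after LPS (log2 1.67, SE 0.210, edgeR adjusted p = 0.0056). It rose also in the Ing4 knockout (1.34, adjusted p = 0.0095) and in the Socs1 knockout (1.49, adjusted p = 0.0079), where the treated libraries read 696 and 570 CPM and so both lay above the untreated 213 and 236 CPM. Cdkn1b, which encodes the related inhibitor p27, moved the other way in all 3, with edgeR log2 changes of -0.90, -0.91 and -1.60 and adjusted p of 0.047, 0.029 and 0.0048. Wee1, the kinase that holds Cdk1 inactive, and the repressing factors E2f6 and E2f7 fell in wild type, with log2 changes of -1.42, -0.87 and -1.65.

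Of 12 tested genes of G1 cyclins, kinases and related regulators, 9 had a negative change in wild type, against 49.3% of all tested genes. In wild type 1 rose, beside 1.89% of all tested genes, and in the Ing4 knockout 2 rose, beside 4.73%. Myc, a growth factor-induced regulator of cell cycle entry, rose in wild type from 3.03 and 3.99 CPM to 92.2 and 67.8 CPM (log2 4.51, SE 0.875, edgeR adjusted p = 0.038). Its log2 changes in the Ing4 and Socs1 knockouts were 4.62 and 4.01, with adjusted p of 0.022 and 0.056. Ccnd2, a D-type cyclin, was low and uneven, at 1.45 and 1.72 CPM in untreated and 3.65 and 7.51 CPM in treated wild type. In the Socs1 knockout its first and second libraries read 0.130 and 3.29 CPM untreated and 0.122 and 18.2 CPM after LPS, with the second above the first in both groups.

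The authors' deposited table of LPS-treated against untreated wild type lists 867 genes, 349 of them lower, and holds 6 of the 43, all lower. In the authors' deposited table these are E2f2 (log2 -2.23), Cdc6 (-1.75), E2f8 (-1.45), Ccne1 (-1.37), Ccne2 (-1.29) and Foxm1 (-1.04), with the authors' adjusted p of 6e-05 to 0.031. Of the 43, their deposited table of LPS-treated Socs1 knockout against LPS-treated wild type, with 183 genes, lists Mki67 alone, at a log2 of 1.09 and an adjusted p of 0.036. The other 3 of the authors' deposited tables, with 117, 104 and 74 genes, list none.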

How the data were processed

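Poly(A) RNA was made into stranded TruSeq libraries and sequenced as single reads on a NextSeq instrument, per the labels' protocols. The authors deposited raw read counts per Ensembl gene, 1 column for each of 12 libraries. The submitters' processing notes name FastQC, HISAT, StringTie, HTSeq and DESeq2, without versions or settings. They name the human build GRCh38, and the treatment protocol names the HEK293T line, but the identifiers are mouse, and 94.8% of the 1084 distinct genes in the authors' deposited tables stand at the GRCm38 positions of GENCODE, used here. Those deposited tables hold log2 fold changes and adjusted p-values.

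Counts were tested in R 4.3.3 with edgeR 4.0.16: filterByExpr, TMM scaling, a mean for each of 6 groups, robust quasi-likelihood F-tests, and Benjamini-Hochberg adjustment over all genes tested (12771, or 13262 when Socs1 LPS library 1 was left out), called at 0.05. Every adjusted p is edgeR's unless another source is named. Intervals have a level of 95%. The script was tested on simulated data. Members, lists and the rule for naming genes were chosen with earlier results of these data known. The rule names members called in any test, the 6 replication and 6 mitotic genes with the largest change after LPS in wild type, the 3 of each kind that differed most in each untreated knockout, and Ccnd1, E2f1, Pcna, Mki67, Cdk1, Cdkn1a, Myc and Ccnd2. Of the other lists it names up to 4 called genes. Other genes were named after their values were seen. No label says what the replicate numbers stand for. Same-numbered libraries of 1 genotype deviated together over all tested genes, at correlations of 0.447, 0.601 and 0.565 in the 3 genotypes, and those of different genotypes did so less (-0.129 to 0.156), so counts from a fit with a block for each genotype and number are given beside the LPS responses. Alternatives were DESeq2 1.42.0, other scalings and filters, fits to the compared groups, replicate blocks, a threshold of 0.01 and leaving out each library.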

Additional observations from a re-analysis of the deposited data

How the results depend on the processing

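The number of the 43 genes called after LPS depended on the settings, and the share of all tested genes called in the same direction, in brackets, moved with it. In wild type the count of 1 (1%) became 18 without a filter on low counts (3.84%), 19 in a fit to the wild-type groups only (8.45%), 8 by DESeq2 (4.67%), and 0 at an adjusted p of 0.01, with a range of 0 to 20 when each library was left out. In the Ing4 knockout the count of 2 (3.29%) became 19 (5.01%), 12 (6.86%), 9 (7.47%) and 0, with a range of 0 to 17. In the Socs1 knockout the count of 0 (0.407%) became 6 without a filter (1.95%) and 2 by DESeq2 (1.81%), with a range of 0 to 16. For the LPS-treated Socs1 knockout against wild type it became 10 without a filter (1.63%) and 5 by DESeq2 (0.767%), with a range of 0 to 18, and for the difference of responses of the Socs1 knockout the range was 0 to 1. The cause was not tested. The biological coefficient of variation was 0.226 without Socs1 LPS library 1 and 0.289 with all.

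With the replicate number as a replicate block, wild type gave 2 calls (1.28%) and Ing4 knockout cells 7 (4.07%), and with a block for each genotype and number 12 (5.9%) and 23 (12%). Neither block changed the count of 0 calls in any other comparison it was fitted to.

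Upper quartile scaling moved the median log2 change of all tested genes after LPS to -0.11 in wild type and -0.13 in both knockouts. It turned Cdk1 to -0.032 in wild type and put all 43 genes below 0 there and in the Ing4 knockout. When each library was left out, the change of Cdk1 ranged from -0.071 to 0.23 for wild-type cells, from -0.21 to 0.12 for Ing4 knockout cells and from -0.051 to 0.44 for Socs1 knockout cells. In the Socs1 knockout the ranges were -1.27 to 0.029 for Mcm2, -1.14 to 0.24 for Cenpf, -0.80 to 0.43 for Mki67, -0.69 to 0.14 for Kif20a, -0.70 to 0.031 for Aurkb, -1.55 to 0.24 for E2f1, -0.55 to 0.27 for Pcna and -3.73 to 6.07 for Ccnd2. In these 8 genes the sign turned without the second LPS-treated library of that genotype, and for Pcna also without its first untreated one (0.17). Over the whole 300-base promoter window the cell cycle homology region was found in 80% of the mitotic genes, 26.3% of the replication genes and 21.7% of all genes, and the E2F letters in 47.4% of the replication genes and 2.6% of all. With 2 libraries a group, even a change of several times the SE given could miss the call, as that of E2f2 did in wild type in the main fit. With the replicate block by genotype and number, edgeR called E2f2 there with all libraries kept (adjusted p = 0.039).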

Other observations

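Within a group, the first library tended to hold the higher levels of the 43 genes. In untreated wild type 42 of 43 were higher in the first library than in the second (median log2 gap 0.20), in LPS-treated wild type 37 (0.31), in the untreated Socs1 knockout 37 (0.26) and in the LPS-treated Socs1 knockout 42 (0.90). In the Ing4 knockout the numbers were 26 untreated (0.05) and 30 after LPS (0.12). Over all tested genes the first library was higher in 46.6% to 51% in each group. In the LPS-treated Socs1 knockout the median gap was 1.22 in the replication genes and 0.60 in the mitotic genes, where the median absolute gap over all tested genes was 0.40. In the LPS-treated Ing4 knockout the replication genes had a median of -0.014 and the mitotic genes of 0.33. What differed between first and second libraries is not given in the labels and was not tested.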
